A study of Mus musculus with 4 samples.

Results

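The cells described here were dendritic cells chosen as conventional by their transcripts, 123 of the 41777 barcodes kept from 4 single-cell RNA-seq libraries of mouse tumour and tumour-draining lymph node (TDLN). A kept barcode had at least 200 genes and at most 10% of its unique molecular identifiers (UMIs, each standing for 1 captured transcript) from mitochondrial genes. A member held at least 20 UMIs of Cd74, the invariant chain of MHC class II, and at least 1 UMI of Xcr1 or Clec9a (80 cells, called cDC1 here) or of Cd209a (40 cells, called Cd209a+ here). The other 3 held both kinds of marker and entered no comparison of kinds. Each member also had 0 UMIs of Ccr7, of Cd3d, Cd3e and Cd3g and of Cd79a, at most 1 of Siglech, at most 5 of C1qa, C1qb and C1qc together, and at most 3 of Rhox5, a gene of the carcinoma cells. These limits were set against mature dendritic cells, T cells, B cells, plasmacytoid dendritic cells, C1q macrophages and tumour cells. Removal was not complete, since members rich in monocyte or carcinoma genes remained, as described below.

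The tumours were CT26, a mouse colon carcinoma line, and the 4 groups were tumour with NanoCa, tumour with mock, TDLN with NanoCa and TDLN with mock, 1 library each. NanoCa is a lipid nanoparticle with a calcium crystal, per the series title, which also names interferon-beta, and the mock libraries carry the tag of no treatment. The treatment protocol field, however, names NanoCa for all 4 libraries, so every ratio of NanoCa to mock rests on titles and tags. All mice were female and 4 to 8 weeks old; the sources used here give neither the number of mice behind a library nor the dose and time of treatment. Dissociated tissue was stained for CD45 and sorted by flow cytometry with a gate that is not given, and 10x Genomics 3' v2 libraries were made with 1 batch date for all.

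Conventional dendritic cells take up antigen in tissue, carry it to lymph nodes and present it to T cells. The cDC1 kind depends on the transcription factors Irf8 and Batf3 and is known for presenting antigen of dead cells to CD8 T cells, with Clec9a binding actin exposed by such cells and Xcr1 binding a chemokine of activated lymphocytes. The cDC2 kind depends on Irf4 and is known for presenting antigen to CD4 T cells, while Cd209a, a C-type lectin, is also known from dendritic cells that derive from monocytes.

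With 1 library per group there was no replicate of any condition, and no test was made. Levels are UMIs summed over the members of a kind and library, as counts per 1000000 UMIs of that sum (CPM). Intervals are 95% and cover counting error alone; they do not cover the spread between mice or between cells. A gene was measured in a comparison with at least 50 UMIs over both sums, and was called higher or lower when the CPM ratio was at least 2-fold. Where 4 values stand in a row, they are in the order NanoCa tumour, mock tumour, NanoCa TDLN and mock TDLN. In these sums a fall in the number of cells that express a gene and a fall in the RNA of each cell cannot be told apart.

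The members were few in every library: 43 in NanoCa tumour (27 cDC1, 15 Cd209a+ and 1 with both), 36 in mock tumour (21 and 15), 18 in NanoCa TDLN (16 and 2) and 26 in mock TDLN (16, 8 and 2 with both). Library totals ran from 74909974 to 167924801 UMIs, and the members' own sums from 42055 to 308094. The median cDC1 member held 6825 UMIs in NanoCa tumour, 11313 in mock tumour, 19555 in NanoCa TDLN and 15432 in mock TDLN. The median Cd209a+ member held 5284, 7224, 21028 and 18962 in the same order, so tumour members were shallower than TDLN members of either kind. Any pair of libraries shared 121 to 183 cell barcodes. Of 542 kept barcodes with a kind marker, 401 reached the Cd74 limit, and among these 147 failed on Ccr7, 127 on Siglech, 56 on Cd79a, 55 on Cd3, 49 on C1q and 31 on Rhox5, some on several. Just inside the Cd74 limit lay 1 member with 20 to 29 UMIs and just outside it 5 barcodes with 10 to 19; 6 barcodes failed with exactly 1 Ccr7 UMI.

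As a share of kept barcodes, cDC1 made up 0.241% (0.159 to 0.350) in NanoCa tumour, 0.226% (0.140 to 0.346) in mock tumour, 0.145% (0.0831 to 0.236) in NanoCa TDLN and 0.156% (0.0891 to 0.253) in mock TDLN. The log2 ratio of NanoCa to mock was 0.09 (-0.79 to 0.99) in tumour and -0.10 (-1.20 to 0.99) in TDLN, so neither tissue showed a difference in cDC1 share beyond counting error. Cd209a+ members made up 0.134% (0.0749 to 0.221) and 0.162% (0.0905 to 0.266) of NanoCa and mock tumour, a log2 ratio of -0.27 (-1.41 to 0.86). In TDLN they made up 0.0182% (0.00220 to 0.0656) with NanoCa and 0.0779% (0.0336 to 0.153) with mock, 2 cells against 8, a log2 ratio of -2.10 (-5.37 to 0.22). These are shares of what the sort let through, and the barcodes with a Ptprc (CD45) UMI were 2455 of 11215 in NanoCa tumour and 2383 of 9281 in mock tumour against 9576 of 11013 and 7814 of 10268 in TDLN.

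The regulatory stretches of 5 genes are shown because they define the members or set the tissues apart: Xcr1, Clec9a and Cd209a chose the kinds, and Cd8a and Cd207 were cDC1 identity genes with far higher levels in TDLN than in tumour. Each is the 250 bases before the gene's start, 5' to 3' on the gene's strand, from RefSeq on GRCm38.p6, with matches to 3 searched motifs in capitals.

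Xcr1 (chr9:123862030-123862279, minus strand): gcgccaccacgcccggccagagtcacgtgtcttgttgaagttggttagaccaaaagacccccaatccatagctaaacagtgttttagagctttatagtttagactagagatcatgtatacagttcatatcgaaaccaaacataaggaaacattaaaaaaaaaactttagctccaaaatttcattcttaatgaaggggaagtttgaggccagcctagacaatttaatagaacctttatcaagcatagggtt
Clec9a (chr6:129408612-129408861, plus strand): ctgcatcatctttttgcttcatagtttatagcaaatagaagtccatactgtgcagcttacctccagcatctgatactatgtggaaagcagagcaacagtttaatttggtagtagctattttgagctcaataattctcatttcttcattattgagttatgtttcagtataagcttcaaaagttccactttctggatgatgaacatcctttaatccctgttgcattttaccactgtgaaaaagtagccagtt
Cd209a (chr8:3748985-3749234, minus strand): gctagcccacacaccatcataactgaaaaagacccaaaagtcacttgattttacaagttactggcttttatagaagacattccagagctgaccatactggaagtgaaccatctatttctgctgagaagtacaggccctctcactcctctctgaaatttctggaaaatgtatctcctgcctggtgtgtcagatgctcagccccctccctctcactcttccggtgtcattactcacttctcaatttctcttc
Cd8a (chr6:71373177-71373426, plus strand): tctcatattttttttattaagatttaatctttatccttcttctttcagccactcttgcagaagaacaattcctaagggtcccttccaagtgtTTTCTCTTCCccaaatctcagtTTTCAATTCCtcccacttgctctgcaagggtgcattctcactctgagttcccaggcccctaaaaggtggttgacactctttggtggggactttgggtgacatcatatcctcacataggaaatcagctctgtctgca
Cd207 (chr6:83677858-83678107, minus strand): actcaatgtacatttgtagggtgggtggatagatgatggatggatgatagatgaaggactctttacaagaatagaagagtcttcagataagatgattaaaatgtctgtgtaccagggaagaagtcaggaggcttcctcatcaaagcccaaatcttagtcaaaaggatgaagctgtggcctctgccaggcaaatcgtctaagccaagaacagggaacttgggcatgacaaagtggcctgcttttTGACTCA

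The motifs, searched on both strands, were GAAANNGAAA (interferon response type), GGAANNGAAA (Ets and IRF composite) and TGANTCA (AP-1 type), which were held by 2.98%, 2.30% and 6.75% of 32851 such windows. The Cd8a window held 2 matches to GGAANNGAAA, both on the other strand, and the Cd207 window ended in 1 match to TGANTCA; the 3 genes of the rule held none. Cd8a and Cd207 were picked for display after their matches and levels had been seen. Of 22 genes that define cDC1 (the identity list and the genes of the rule), 16 had a window: GAAANNGAAA was found in Ifi205 and Tlr11, GGAANNGAAA in Cd8a and TGANTCA in Cd207. Of 21 genes for cDC2, 15 had a window, with 0 for GAAANNGAAA, 1 for GGAANNGAAA (Clec4a1) and 1 for TGANTCA (Clec12a). A match of letters is a description and names no bound factor.

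The cDC1 members carried the genes of their name, here given as a description since the cells were chosen by related transcripts. Irf8, the factor cDC1 depend on, stood at 1708, 949.5, 1545 and 874 CPM, against 49.3, 78.7, 23.8 and 158 CPM in Cd209a+ members. Per cell, the lowest, median and highest Irf8 counts of cDC1 were 0, 9 and 59 UMIs in NanoCa tumour, and 0, 10 and 33 in mock tumour. In TDLN they were 1, 18.5 and 110 with NanoCa and 1, 11.5 and 33 with mock, so every TDLN cDC1 held Irf8. Flt3, the receptor for the growth factor of conventional dendritic cells, stood at 129, 94.2, 149 and 115 CPM. The cDC1 identity list of 20 genes, chosen apart from the genes of the rule, summed to 6399.96 and 4119.9 CPM in NanoCa and mock tumour and 7494 and 4360.03 in NanoCa and mock TDLN. It outnumbered the cDC2 list in 23 of 27, 18 of 21, 16 of 16 and 11 of 16 cDC1 members, in the order NanoCa tumour, mock tumour, NanoCa TDLN and mock TDLN.

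The Cd209a+ members carried part of the cDC2 programme but almost no Flt3 and much Cd14, so they are called by their marker and not as cDC2. Mgl2, a lectin of cDC2 and of dermal dendritic cells, stood at 1647, 1478, 571 and 513 CPM. Irf4, the factor of cDC2, stood at 118, 209.9, 71.3 and 120.4 CPM, and Sirpa, a signal receptor of cDC2 and macrophages, at 207, 175, 309 and 190.1 CPM. Flt3, in contrast, gave 1, 0, 2 and 0 UMIs in all, where cDC1 gave 24, 24, 46 and 26. A list of 12 genes of conventional dendritic cells of either kind, Flt3 among them, summed to 11136, 8798, 8061 and 15492 CPM in Cd209a+ members. That was below the 37800, 26285, 28238 and 16897 CPM of cDC1 but above the 1335, 1243, 1385 and 1287 CPM of all kept barcodes. In NanoCa and mock tumour Cst3 alone gave 9223 and 7119 CPM of the Cd209a+ sums. Cd14, a monocyte receptor for bacterial lipid, stood at 1085, 1784, 499 and 1299 CPM, against 102, 510.1, 149 and 1077 CPM in cDC1. No UMI of Cd4 or Esam, markers of a splenic cDC2 subset, was found after each cell was thinned to 3000 UMIs. By a floor of 3 counts, 0 of 15 cells allows up to 20% of cells with a UMI at this depth in NanoCa tumour, and 0 of 13 up to 23.1% in mock tumour. After the same thinning Mgl2 was seen in 9 of 15, 7 of 13, 2 of 2 and 4 of 8 Cd209a+ members, against 2.00%, 0.275%, 0.234% and 0.114% of T cells, whose median depths were 2299, 2641, 4430.0 and 4480.0 UMIs. A list of monocyte and macrophage genes, 17 of whose 20 members were in the files, gave more UMIs than the cDC2 list in 6 of 15, 8 of 15, 1 of 2 and 4 of 8 Cd209a+ members, 19 of 40 in all.

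The same monocyte list outnumbered the cDC1 list in 11 of 80 cDC1 members: 2 of 27 in NanoCa tumour, 3 of 21 in mock tumour, 0 of 16 in NanoCa TDLN and 6 of 16 in mock TDLN. In mock TDLN those 6 cells held 1772 of the 2014 monocyte-list UMIs of the cDC1 and 1135 of the 1356 UMIs of Lyz2, the lysozyme of monocytes and macrophages. Their library is 1 side of every TDLN ratio for cDC1, so many of those ratios are also given without such cells. The cells were told apart by the monocyte list set against the identity list of their kind. Differences of these lists without such cells are set by the choice and are a description. The list summed to 1858, 2872, 1438 and 8888 CPM in cDC1 and to 4784, 4312, 2402 and 5576 CPM in Cd209a+ members, with 1, 2, 5 and 2 of its 17 genes at 0 in cDC1 and 4, 4, 9 and 5 in Cd209a+ members. Of its defining genes in cDC1, Lyz2 stood at 878, 1248, 987 and 5984 CPM and Ly6c2 at 145, 102, 29.2 and 688 CPM. In addition, 2 cDC1 of mock tumour held over 10 UMIs of carcinoma genes (36 of the 52 such UMIs there) and had at least 23652 UMIs each. Cells of either sort, 13 cDC1 and 19 Cd209a+, are called rich members below; without them 25, 16, 16 and 10 cDC1 and 9, 7, 1 and 4 Cd209a+ members were left in the 4 libraries. The lists of T-cell and B-cell genes reached at most 15 and 11 UMIs in a member. Removing the barcodes with the highest doublet scores took out 0, 3, 0 and 1 members; what the rich members are was not tested.

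**Figure D1:**
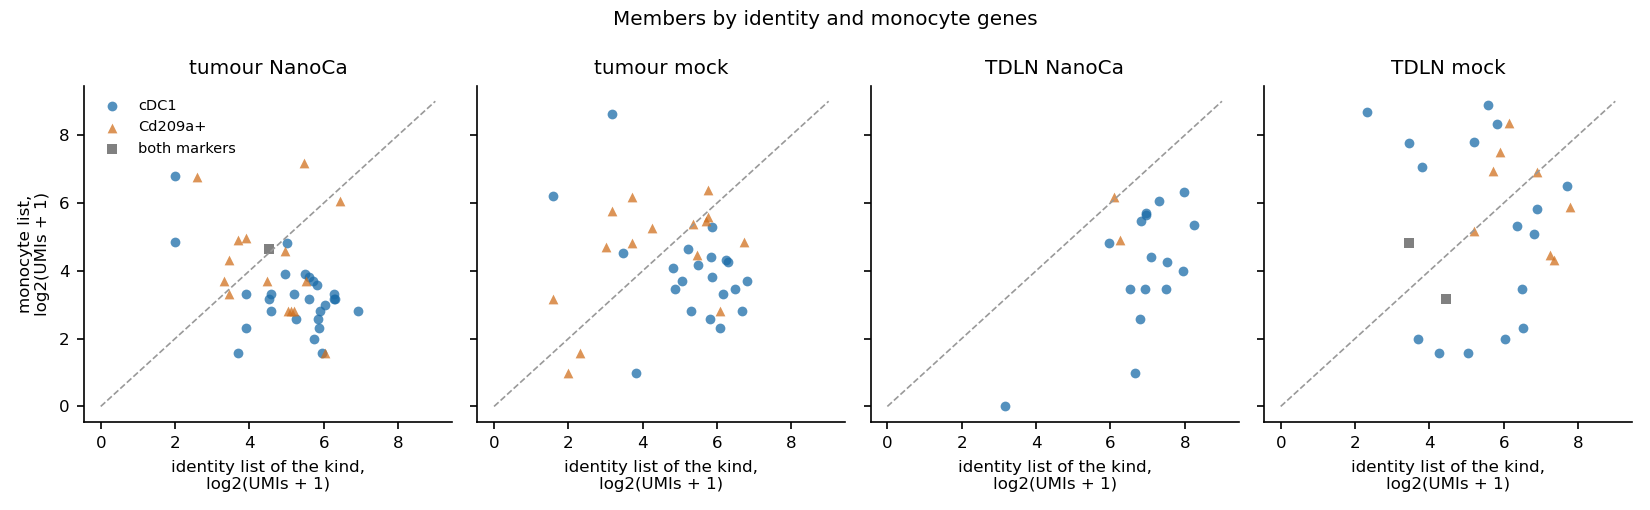
Each point is 1 member; the x axis is the summed UMIs of the identity list of its kind (the cDC2 list for Cd209a+ members and for those with both markers) and the y axis the summed UMIs of the monocyte and macrophage list, both as log2(UMIs + 1), 1 panel per library. Points above the dashed line of equality hold more monocyte-list than identity-list UMIs: 6 of 16 cDC1 in mock TDLN, 0 of 16 in NanoCa TDLN, and 14 of 30 Cd209a+ members in tumour.

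The 2 kinds could be set side by side in tumour, where each library held at least 15 of both. With all members, Irf8, Naaa, Wdfy4 and Ppt1 were higher in cDC1 in the NanoCa and in the mock library. Lectins and myeloid genes such as Mgl2, Clec4n and Fcer1g were higher in Cd209a+ members in both. Of 716 genes measured, 21 (2.93%) were at least 2-fold higher in cDC1 in both libraries and 33 (4.61%) at least 2-fold lower. Since the kinds were chosen by transcripts of the same cells, these differences describe the kinds and test nothing. Of the 6 cDC1 identity genes measured, 5 were higher (Irf8, Naaa, Wdfy4, Cd24a and Ppt1) and 0 lower.

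Naaa, a lysosomal amidase, stood at 1162, 734, 935 and 653 CPM in cDC1, and its log2 ratio over Cd209a+ members was 2.71 in NanoCa and 2.07 in mock tumour. Wdfy4, which cDC1 need to cross-present, stood at 627, 400.2, 828 and 441 CPM, with log2 ratios of 2.99 in NanoCa and 4.52 in mock tumour. Ppt1, a lysosomal thioesterase, gave 4.43 in NanoCa and 3.99 in mock tumour. Cst3, the protease inhibitor cystatin C, was higher in cDC1 too, at 35813 and 24782 CPM in tumour cDC1 and 9223 and 7119 in tumour Cd209a+ members. Psmb9, a subunit of the immunoproteasome, gave 1.70 in NanoCa and 1.74 in mock tumour, Ece1 4.37 in NanoCa and 2.65 in mock tumour and Sdad1 2.65 in NanoCa and 2.81 in mock tumour. Itgae, the CD103 integrin of tissue cDC1, had 0 UMIs in every Cd209a+ sum, which allows at most 29.6 and 26.2 CPM in NanoCa and mock tumour.

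On the other side, Mgl2 gave 0 UMIs in NanoCa tumour cDC1, at least 102.5-fold lower than in Cd209a+ members by a floor of 3 counts over the sum, and a log2 ratio of -5.39 in mock tumour. Clec4n (Dectin-2, a receptor for fungal sugars) stood at 21.4 and 74.6 CPM in cDC1 and 661 and 901 CPM in Cd209a+ members of NanoCa and mock tumour. Fcer1g, the shared signal chain of Fc receptors, gave log2 ratios of -1.86 in NanoCa and -1.85 in mock tumour. Il1r2, the decoy receptor of interleukin 1, gave -2.68 in NanoCa and -2.88 in mock tumour; Cfp, properdin of the complement system, -2.47 in NanoCa and -2.93 in mock tumour; and Capg, an actin-capping protein, -3.03 in NanoCa and -2.48 in mock tumour. The transcription factor Bhlhe40 gave -2.69 in NanoCa and -2.32 in mock tumour and the membrane protein gene Ms4a6d -2.99 in NanoCa and -2.96 in mock tumour. Of 8 MHC class II presentation genes measured, the proteases Ctss and Ctsh were lower in cDC1 and 0 were higher. H2-Aa, an MHC class II chain, stood at 14701, 11685, 20705 and 17268 CPM in cDC1 and at 13977, 15139, 14172 and 15631 CPM in Cd209a+ members. Rich members were 6 of 15 and 8 of 15 Cd209a+ members of NanoCa and mock tumour. Without the rich members 500 genes were measured, 23 higher and 26 lower. Irf8, Naaa, Wdfy4, Ppt1, Cst3 and Psmb9 were still higher in cDC1, and Mgl2, Fcer1g and Ctss still lower. Cd24a and Ctsh were no longer called, H2-DMb2 was lower, and Clec4n was not measured.

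**Figure D2:**
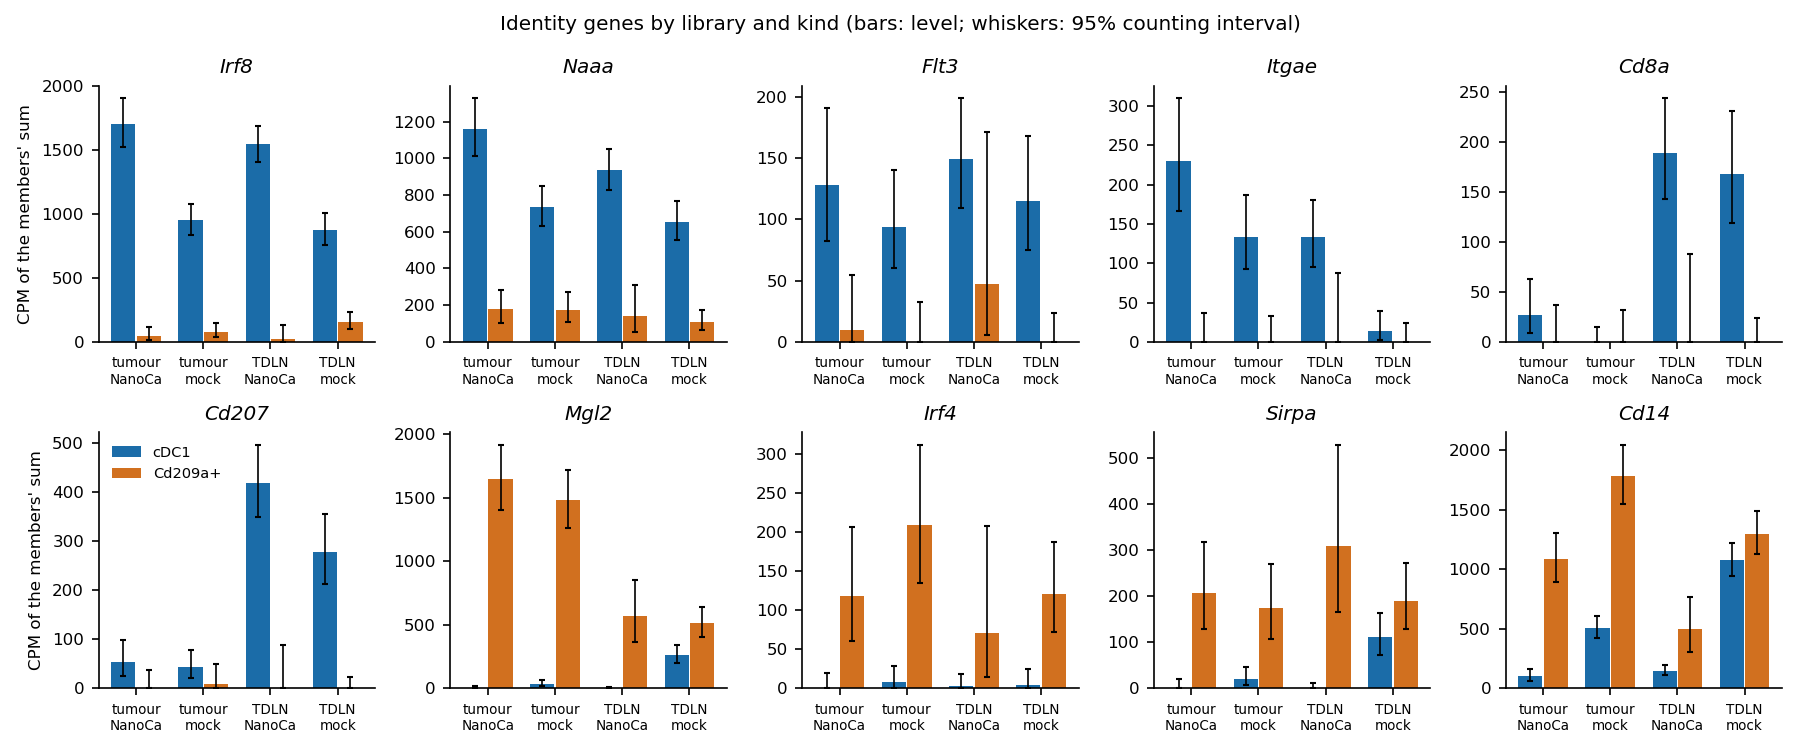
Bars give the level of 10 genes in CPM of the members' summed UMIs, for cDC1 (blue) and Cd209a+ members (orange) of each library on the x axis; whiskers are 95% counting intervals. In both tumour libraries Irf8, Naaa, Flt3 and Itgae are higher in cDC1 and Mgl2, Irf4, Sirpa and Cd14 in Cd209a+ members; the TDLN bars of Cd209a+ members rest on 2 and 8 cells and are shown as values only. Cd8a and Cd207 are higher in TDLN than in tumour cDC1.

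Groups of related cells from the same libraries were chosen by their own marker limits: 97 mature dendritic cells, 109 plasmacytoid dendritic cells and 1127 C1q macrophages. Naaa ran from 0 to 32.2 CPM in mature dendritic cells over the 4 libraries, from 0 to 10.6 CPM in plasmacytoid dendritic cells and from 58.8 to 111 CPM in C1q macrophages, all below each library's cDC1. Irf8, which plasmacytoid dendritic cells also use, ran from 1581 to 2359 CPM there, a range that overlaps that of cDC1. Ccl22, a chemokine of mature dendritic cells, ran from 661 to 1148 CPM in them and stood at 5.36, 7.85, 16.2 and 4.41 CPM in cDC1. Lyz2 ran from 11699 to 15662 CPM in C1q macrophages, above its level in every sum of members. H2-Aa ran from 859 to 5369 CPM in the macrophages, below every sum of members.

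Between tissues, cDC1 of TDLN carried more Cd8a and Cd207 and cDC1 of tumour more Spp1, Hsph1 and Dnajb1. Cd207, langerin, a lectin of Langerhans cells and of some cDC1, stood at 53.6 and 43.2 CPM in NanoCa and mock tumour and at 419 and 278 CPM in NanoCa and mock TDLN. Its log2 ratio of tumour to TDLN was -2.97 between the NanoCa and -2.69 between the mock libraries, and -2.92 and -2.97 without the rich members. After thinning to 3000 UMIs, Cd207 was seen in 2 of 25 (8.00%), 1 of 20 (5.00%), 8 of 15 (53.3%) and 6 of 14 (42.9%) of cDC1. In T cells of the same libraries, which should lack it, the shares were 0.400%, 0%, 0% and 0.114%. Without thinning the cDC1 shares were 11.1%, 14.3%, 68.8% and 43.8%. Cells shallower than 3000 UMIs (2, 1, 1 and 2 cDC1) were left out. The highest cDC1 held 6, 9, 26 and 25 Cd207 UMIs, and the median cell 0, 0, 6.5 and 0, so cDC1 of TDLN were mixed in Cd207.

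Cd8a, the co-receptor chain by which lymphoid cDC1 were first told apart, gave 5 UMIs in NanoCa tumour cDC1 and 0 in mock tumour cDC1 (26.8 and 0 CPM). The TDLN cDC1 gave 58 UMIs with NanoCa and 38 with mock (188 and 168 CPM); 0 UMIs allow at most 11.8 CPM in mock tumour. Too few UMIs in tumour kept Cd8a out of the count of measured genes, and its reference cells were the Cd209a+ members, with 0 UMIs in all 4 libraries, because T cells express it. Itgae ran the other way within each treatment: 230.3 and 133 CPM in NanoCa and mock tumour cDC1 against 133 and 13.2 CPM in TDLN, where the mock value rests on 3 UMIs. Itgae was seen after thinning in 13 of 25 (52.0%), 4 of 20 (20%), 3 of 15 (20%) and 1 of 14 (7.14%) of cDC1, against 2.40%, 1.65%, 3.04% and 2.85% of T cells. In level, NanoCa tumour was the highest and mock TDLN the lowest, with counting intervals that did not overlap, while those of mock tumour and NanoCa TDLN overlapped with each other and with that of NanoCa tumour. In the thinned shares even the intervals of NanoCa tumour (31.3 to 72.2%) and mock TDLN (0.181 to 33.9%) overlapped. The limit on Ccr7 also acted unequally on the tissues. Among barcodes with a kind marker and enough Cd74, 20 of 88, 12 of 76, 63 of 117 and 52 of 120 failed on it. What this did to Cd8a, Cd207 and Itgae was not tested.

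Over all 1102 genes measured in cDC1, 5 (0.454%) were at least 2-fold higher in tumour in both pairs of libraries and 8 (0.726%) at least 2-fold lower. The 5 higher genes were Spp1, Hsph1, Dnajb1, Egr1 and Mtdh; Hsph1, Dnajb1 and Egr1 were 3 of 25 measured immediate-early and heat-shock genes, whose other 22 were not past 2-fold in both pairs. Dnajb1, a heat-shock co-chaperone, stood at 691, 804, 302 and 132 CPM, and Hsph1, another heat-shock protein, gave log2 ratios of 1.57 between the NanoCa and 2.78 between the mock libraries. Egr1, an immediate-early transcription factor, gave 1.63 between the NanoCa and 1.15 between the mock libraries; with Rhox5 at 0 the latter turned to -0.39. Mtdh gave 1.27 between the NanoCa and 1.14 between the mock libraries. Spp1, osteopontin, gave 2.24 between the NanoCa and 3.08 between the mock libraries, but 49.6% of its mock tumour UMIs came from 1 cell. Among the lower genes, the tetraspanin Cd81 gave -1.97 between the NanoCa and -1.78 between the mock libraries, Cxcl16, a membrane-bound chemokine, -1.28 between the NanoCa and -1.36 between the mock libraries, Marcksl1 -1.66 between the NanoCa and -2.69 between the mock libraries and Ass1, an arginine-making enzyme, -1.44 between the NanoCa and -2.44 between the mock libraries. Each tissue was dissociated and sorted on its own, the TDLN members were deeper, and the limit on Ccr7 left out a larger part of TDLN candidates. Handling, the choice of members and tissue thus cannot be told apart. Without the rich members 18 genes were higher and 8 lower of 696, and most of those higher were other genes. Among listed genes, Ccl2, Ccl4, Ifitm3, Bst2, Fcer1g, S100a6, Ier3, Eno1, Ldha and Mif were higher only then, and Ppt1 and Lyz2 lower only then. Spp1, Hsph1, Dnajb1, Cd207, Cd81 and Ass1 were still past 2-fold in both pairs. Mtdh gave 1.19 and 0.72 and Cxcl16 -1.47 and -0.50, under 2-fold between the mock libraries, and Egr1 and Marcksl1 had too few UMIs to be measured.

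With NanoCa, tumour cDC1 held less of most measured cell-cycle genes and, counting all members, of Nfkbia and Nfkb1. Counting all members, the interferon-stimulated, MHC class I and glycolysis lists had 0 genes past 2-fold. Of 1181 genes measured, 50 (4.23%) were at least 2-fold higher with NanoCa and 57 (4.83%) at least 2-fold lower, and the median log2 ratio was 0.04. In the cell-cycle list 6 of 8 measured genes were lower (Birc5, Ube2c, Dut, Stmn1, Tuba1b and Hmgb2) and 0 higher, with a median of -1.11. The list's summed level gave a log2 ratio of -0.74 (-0.86 to -0.62), and -0.73 (-0.86 to -0.60) without the rich members, where 3 of 5 measured genes were lower. A single mock cell held 385 of the 1880 cell-cycle UMIs there. Tuba1b, a tubulin, stood at 541 CPM in NanoCa and 1185 CPM in mock, and Stmn1, a regulator of microtubules, at 134 CPM in NanoCa and 329.6 CPM in mock. Mki67, a proliferation marker, gave 3 UMIs in NanoCa and 42 in mock, and was seen in 0 of 25 and 5 of 20 thinned cDC1, against 16.8% and 18.4% of T cells. By a floor of 3 counts, 0 of 25 allows a share of up to 12% of cells with a UMI at this depth; unthinned, 2 of 27 and 10 of 21 cells held Mki67.

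Of the maturation and costimulation list, 2 of 8 measured genes were lower and 0 higher. Nfkbia, the inhibitor of NF-kB, stood at 428 CPM in NanoCa and 1103 CPM in mock, a log2 ratio of -1.36 (-1.74 to -1.0), and Nfkb1, a subunit of NF-kB, gave -1.14 (-1.99 to -0.34). With 0 UMIs of Rhox5 required, Nfkbia gave -1.43 and Nfkb1 turned to 0.44. With the highest doublet scores removed they gave -1.45 and 0.022. Without the rich members 1 of 7 measured genes was lower, Nfkb1, and Nfkbia was no longer called. The summed list gave -0.57 (-0.74 to -0.41), and -0.65 without the rich members. Cd86, a ligand of CD28, stood at 289 CPM in NanoCa and 232 CPM in mock. Cd40, the receptor for help from T cells, gave 5 and 8 UMIs, and Il12b, a cytokine subunit that drives T helper 1 and CD8 responses, 1 and 9, too few to measure. Among immediate-early and heat-shock genes, Jund and Hspa1b were higher and Junb and Nr4a3 lower, of 25 measured.

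The interferon lists bear on the interferon-beta of the series title, and no measured gene of the first of them reached 2-fold in tumour cDC1. Of its 53 interferon-stimulated genes only 13 had enough UMIs to be measured. Of these 0 were past 2-fold in either direction, where 4.23% of all measured genes were higher and 4.83% lower. The summed log2 ratio of the list was 0.14 (0.04 to 0.25), and -0.07 (-0.19 to 0.04) without the rich members. Irf7, the amplifier of type I interferon, stood at 723 CPM in NanoCa and 643 CPM in mock, and Isg15, a ubiquitin-like modifier, at 332 CPM in NanoCa and 373 CPM in mock. Interferon-gamma-induced genes gave a summed ratio of 0.25 (0.07 to 0.43), which was -0.30 without the rich members. Ifnb1 gave 0 UMIs in cDC1 of all 4 libraries, at most 16.1 CPM in NanoCa tumour, and 3 UMIs in Cd209a+ members of mock tumour. Ifnar2, a chain of the receptor for interferon-beta, stood at 177, 141, 208 and 172 CPM. MHC class I genes gave 0 of 18 past the fold, and a summed ratio of 0.00 (-0.08 to 0.08). Without the rich members 1 of 17 was lower, H2-T23, and the summed ratio was -0.22 (-0.31 to -0.13). MHC class II gave 1 of 9 lower, the protease Ctsl, and a summed ratio of 0.34 (0.29 to 0.39) that was 0.00 without the rich members. Calcium and NFAT genes gave 0 of 11 past 2-fold. Of cDC1 identity genes, 2 of 10 measured were higher, Batf3 and Septin3, with a median of 0.71. Their summed ratio of 0.64 was 0.23 without the rich members, which were chosen partly by this same list.

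The genes named for the widest higher ratios were past 2-fold over all other kept barcodes of the tumour libraries too. Arf5, a small GTPase of vesicle traffic, stood at 396 CPM in NanoCa and 70.6 CPM in mock, a log2 ratio of 2.49 (1.73 to 3.32), where the other barcodes gave 2.12. Taf10, a subunit of the general transcription machinery, gave 2.50 in cDC1 and 2.37 in the others; Rala, a small GTPase, 2.13 and 1.70; and Gnai2, a G-protein subunit, 1.66 and 1.5. Macroh2a1, a histone variant, gave 2.24 against 1.03, and Plet1 1.94 against 1.17. The difference of these 6 genes was thus shared by the libraries as a whole.

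Other genes were higher in cDC1 while the other barcodes gave under 1.5-fold. Gpr183, an oxysterol receptor that guides dendritic cells and lymphocytes in lymphoid tissue, stood at 236 CPM in NanoCa and 66.7 CPM in mock, 44 against 17 UMIs, with a log2 ratio of 1.82 (0.98 to 2.72); the other barcodes gave -0.08. It kept 1.80 without the rich members. Hspa1b, the inducible heat-shock protein 70, stood at 1285 CPM in NanoCa and 538 CPM in mock, a ratio of 1.26 (0.95 to 1.57) that was 0.90 without the rich members. Ifitm1, an interferon-induced membrane protein, gave 1.44, with 72.6% of its mock UMIs in 1 cell. Jund, an AP-1 factor, gave 1.08. Taldo1, of the pentose phosphate pathway, gave 1.00 and Cmss1 0.89, the last 2 below 2-fold.

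Several of the lower genes rested on 1 mock cell. Cxcl2, a chemokine for neutrophils, stood at 26.8 CPM in NanoCa and 1919 CPM in mock, but 1 mock cell held 91.8% of its 489 UMIs, and without the rich members the log2 ratio went from -6.16 to -0.75 on too few UMIs to measure. Spp1 stood at 230.3 CPM in NanoCa and 2641 CPM in mock, -3.52 with all members, -2.01 without the rich ones and -0.75 with Rhox5 at 0. Cxcl1, a relative of Cxcl2, gave -3.38 and Ctsl -2.80, with 62.0% and 68.1% of the mock UMIs in 1 cell. Zfpm2 gave -5.04 (-8.11 to -3.15) on 2 against 90 UMIs, Serpinh1, a collagen chaperone, -4.46 (-7.54 to -2.54) on 2 against 60, and Ccn1, a matrix protein, -3.25 (-4.50 to -2.22); the highest mock cell held 75.6%, 45.0% and 47.1% of their mock UMIs. With Rhox5 at 0 Zfpm2 gave -1.41, and Ctsl turned to 0.91. In mock tumour 24.8% of cDC1 UMIs were estimated as free RNA from carcinoma genes, against 8.56% in NanoCa tumour. The estimate counted all members, and 2 rich members held 36 of the 52 carcinoma-gene UMIs of mock tumour cDC1, so the 2 values may not reflect free RNA alone. With these shares subtracted, 38 genes were higher and 44 lower of 963. Without the rich members 20 genes were higher and 26 lower of 902, of which 15 and 20 were among the 50 and 57.

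**Figure D3:**
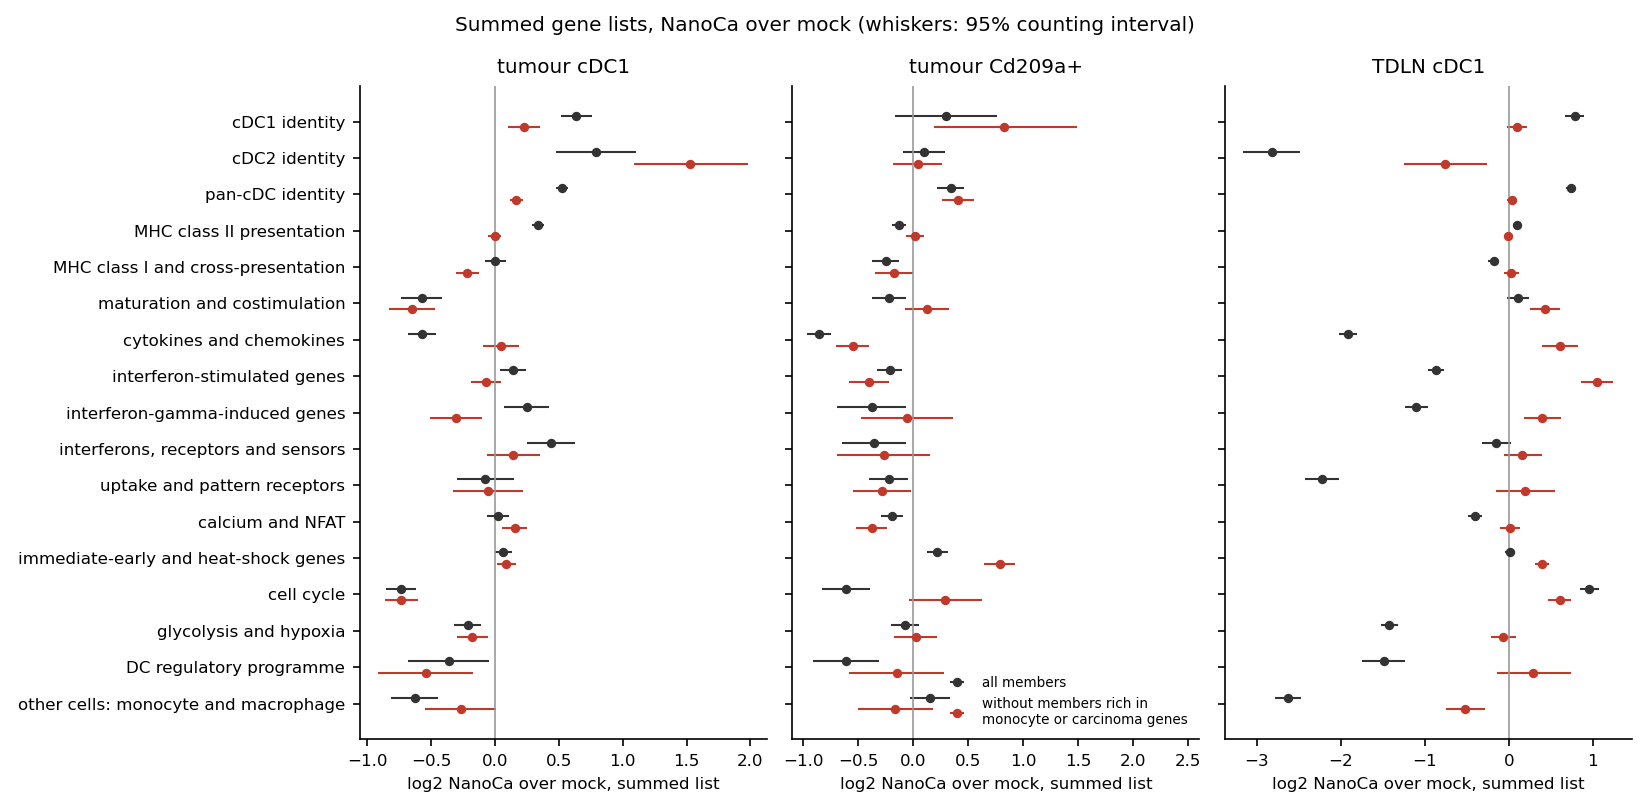
Points give the log2 ratio of NanoCa to mock of each gene list's summed UMIs, with all members (black) and without the rich members (red), for tumour cDC1, tumour Cd209a+ members and TDLN cDC1; whiskers are 95% counting intervals and the x axes differ. In TDLN cDC1 the cytokine, interferon, uptake and glycolysis lists lie below 0 with all members and near or above 0 without the rich ones, while the cell-cycle list lies below 0 in tumour cDC1 and above 0 in TDLN cDC1 in both.

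With NanoCa, tumour Cd209a+ members held less Il1b, Cxcl1 and Cxcl2 and more Tnf, Tnfsf9, Hspa1b and Dnajb1, each on 15 cells a library. Of 592 genes measured, 19 (3.21%) were at least 2-fold higher and 19 (3.21%) at least 2-fold lower, with a median log2 ratio of -0.02. Of 9 cytokine and chemokine genes measured, 3 were higher (Tnf, Ccl3 and Ccl6) and 4 lower (Il1b, Cxcl2, Cxcl1 and Ccl17). Il1b, the inflammatory interleukin 1 beta, stood at 2239 CPM in NanoCa and 5842 CPM in mock, a log2 ratio of -1.38 (-1.61 to -1.16); the other barcodes of the libraries gave -0.69, and the ratio was -0.82 without the rich members. Cxcl2 stood at 1874 CPM in NanoCa and 5799 CPM in mock, -1.63 (-1.87 to -1.39), with -1.19 in the others and -1.41 without the rich members. Cxcl1 gave -2.22 (-2.96 to -1.53), with 60% of its mock UMIs in 1 cell. Without the rich members it gave -1.59 (-2.80 to -0.51) on under 50 UMIs. Ccl17 gave -1.41, but 82.2% of its mock UMIs came from 1 cell, and its sign turned with the limits of the rule: 1.22 with at least 2 kind-marker UMIs and 0.95 with at most 2 C1q UMIs.

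Tnf, tumour necrosis factor, stood at 907 CPM in NanoCa and 219 CPM in mock, a log2 ratio of 2.05 (1.40 to 2.75), where the other barcodes gave -1.71. A single NanoCa cell held 59.8% of its 92 UMIs, and the ratio was 3.10 without the rich members. Tnfsf9, the 4-1BB ligand that costimulates T cells, stood at 1006 CPM in NanoCa and 271 CPM in mock, 1.89 (1.30 to 2.52), with 51.0% of its NanoCa UMIs in 1 cell and 1.99 without the rich members. Hspa1b stood at 868 CPM in NanoCa and 297 CPM in mock and gave 1.55 (0.96 to 2.16). Dnajb1 gave 1.58 (0.81 to 2.40), with 50.9% of its NanoCa UMIs in 1 cell. With Dusp1, a phosphatase induced by stress, these were the 3 of 21 immediate-early and heat-shock genes that were higher. None was lower, and the summed ratio was 0.22 (0.12 to 0.31). Without the rich members 8 of 14 were higher, Hspa1b and Dusp1 among them but not Dnajb1, with a median of 1.16. Lars2, a mitochondrial tRNA ligase, gave 1.61 (1.19 to 2.05), and Mmp12, a macrophage elastase, 2.07 (1.09 to 3.18), with all 11 mock UMIs in 1 cell. Macroh2a1 gave 2.41, with 1.03 in the other barcodes.

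Among the lower genes, Ly6a, an interferon-responsive surface protein, stood at 98.6 CPM in NanoCa and 997 CPM in mock, -3.34 (-4.44 to -2.41), with -0.85 in the other barcodes and 52.6% of its mock UMIs in 1 cell. Areg, a growth factor of the EGF family, gave -2.03 where the other barcodes gave 0.60. It was found in 4 cells of each library, with 53.3% of its NanoCa and 42.0% of its mock UMIs in 1 cell. Pde4b, a phosphodiesterase, gave -1.73, Rheb, an activator of mTOR, -1.60 and Malt1, a signalling protease, -1.18. Hmgb2, a chromatin protein of dividing cells, gave -1.66 with all members and 0.03 (-1.34 to 1.43) without the rich ones. Lyz2 likewise went from 1.15 to -0.35 (-1.23 to 0.53); both had under 50 UMIs without the rich members, too few to be measured. MHC class II, MHC class I, interferon-stimulated and calcium lists gave 0 of 8, 0 of 12, 0 of 8 and 0 of 8 genes past 2-fold, with summed log2 ratios of -0.13, -0.25, -0.22 and -0.20. Only 302 genes could be measured without the rich members, 16 higher and 11 lower, and 4 of those lower were among the 19. In TDLN 2 and 8 Cd209a+ members were too few for such a comparison.

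With NanoCa, TDLN cDC1 held more Hmgb2, Pclaf, H1f3, H2az2, H2ax, Hspa1a and Hspa1b than with mock, each past 2-fold with and without the rich members. Most of the lower genes were lost without the 6 monocyte-rich cells of the mock library, where many had too few UMIs to be measured. Of 1455 genes measured, 98 (6.74%) were at least 2-fold higher and 120 (8.25%) at least 2-fold lower with NanoCa. Without the rich members it was 70 higher and 16 lower of 1125, of which 11 of the lower were among the 120.

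Hmgb2 stood at 818 CPM in NanoCa and 75 CPM in mock, a log2 ratio of 3.45 (2.74 to 4.25), with -0.08 in the other barcodes and 3.13 without the rich members. Pclaf, a partner of the replication clamp, gave 67 UMIs against 1, a ratio of 5.62 (3.10 to 10.95), with 49.3% of the NanoCa UMIs in 1 cell, and 4.68 (2.15 to 10.00) without the rich members. H1f3, a linker histone, gave 62 against 2 UMIs, 4.51 (2.6 to 7.59), with 69.4% in 1 cell, and 3.56 (1.65 to 6.64) without them. The histone variants H2az2 and H2ax gave 2.46 (1.59 to 3.47) and 2.17 (1.38 to 3.07), and 2.10 and 1.67 without them. Of 4 cell-cycle genes measured, 2 were higher (Stmn1 and Hmgb2) and 0 lower, and without the rich members 3 of 4. The summed list gave 0.96 (0.84 to 1.08), and 0.61 (0.47 to 0.74) without them. Mki67 gave 42 UMIs in NanoCa and 1 in mock, but was seen in only 2 of 15 and 1 of 14 thinned cDC1, against 3.16% and 4.90% of T cells. The highest NanoCa cells held 581 and 540 of the 2195 cell-cycle UMIs, and 13 and 23 of the 42 Mki67 UMIs, so few cells carried this difference. Of the NanoCa UMIs of Hmgb2, H2az2 and H2ax, 30.6%, 37.8% and 33.7% came from 1 cell.

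Hspa1a stood at 1207 CPM in NanoCa and 304 CPM in mock, 1.99 (1.61 to 2.38), and was 1.98 without the rich members, while the other barcodes gave -0.24. Hspa1b stood at 1006 CPM in NanoCa and 327 CPM in mock, 1.62 and 1.49 without them. With Dnajb1 they were the 3 of 25 immediate-early and heat-shock genes that were higher; Egr1 and Ier3 were lower and 20 neither, Hspa8, Hsp90aa1, Dnaja1 and Hsph1 among them. That list's summed ratio was 0.01 (-0.05 to 0.07), and 0.39 (0.31 to 0.47) without the rich members. Hspa1b was thus at least 2-fold higher with NanoCa in tumour cDC1, tumour Cd209a+ members and TDLN cDC1, at 1.26, 1.55 and 1.62, and the other barcodes gave 0.00 in tumour and -0.61 in TDLN. Without the rich members it was just under 2-fold in tumour cDC1 (0.90).

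The lower genes were led by Cxcl2 at 6.49 CPM in NanoCa and 2745 CPM in mock, -8.72 (-11.77 to -6.86), and by Ccl6, a myeloid chemokine, at 3.25 CPM in NanoCa and 1659 CPM in mock, -9.00 (-14.31 to -6.51). Clec4n, Mmp12 and Mgl2 gave 0 UMIs with NanoCa and 94, 88 and 60 with mock, at least 42.6-fold, 39.9-fold and 27.2-fold lower by a floor of 3 counts over the sum; 1 mock cell held 86.7% of the Mgl2 UMIs. Capg gave 1 against 138 UMIs, -7.55 (-12.87 to -5.05), and Plaur, the urokinase receptor, -6.28 (-9.34 to -4.39). Ms4a6d gave -5.87 (-8.94 to -3.97) and Tnf -5.44 (-7.75 to -3.85). Leaving out the rich members, Cxcl2 gave -4.91 (-8.04 to -2.90), and it, Ccl6, Clec4n, Mmp12, Mgl2, Capg, Plaur, Ms4a6d and Tnf all had under 50 UMIs, too few to be measured. Of the monocyte list 5 of 6 measured genes were lower with all members; this list chose the rich members, so its 2 of 3 higher genes without them are not independent of that choice. As a description, Cd14 went from -2.85 to 1.55, Fcer1g from -3.27 to 0.22 and Lyz2 from -2.60 to -0.93 when those cells were left out.

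The lists of glycolysis, interferon-gamma-induced, cytokine, uptake and interferon-stimulated genes had lower genes with all members and 0 without the rich ones. Glycolysis and hypoxia genes were lower in 8 of 12, and in 0 of 11 without the rich members; Gapdh went from -1.61 to -0.34. Interferon-gamma-induced genes were lower in 7 of 10, and in 0 of 4 without them. Cytokines and chemokines were lower in 6 of 10, and uptake receptors in 5 of 8 with Havcr2 (TIM-3) higher; without the rich members these were 0 of 5 and 0 of 4 lower. Interferon-stimulated genes numbered 4 lower and 1 higher among 16, a summed ratio of -0.87 (-0.97 to -0.77); without the rich members 0 of 11 were lower and 3 higher (Isg15, Trim30a and Sp100), a summed ratio of 1.05 (0.86 to 1.25). Isg15 stood at 289 CPM in NanoCa and 631 CPM in mock with all members, and at 289 and 25.5 CPM without, so its log2 ratio went from -1.13 to 3.5 (1.91 to 5.81), the latter on 89 against 3 UMIs. Of cDC1 identity genes 4 of 14 were higher with NanoCa (Cadm1, Ifi205, Plpp1 and Cd24a) and 0 of 14 without the rich members, where Irf8 went from 0.82 to 0.31. The rich members were chosen partly by low counts of this list, so its values without them are not independent of that choice. Cxcl9, a chemokine that draws activated T cells and is known from cDC1, stood at 182, 54.9, 256 and 944 CPM; without the rich members it was 22.2, 80.9, 256 and 179 CPM. It was seen after thinning in 2 of 25, 4 of 20, 4 of 15 and 9 of 14 cDC1, against 0.80%, 3.02%, 0.117% and 2.28% of T cells. MHC class I genes gave 0 of 18 past 2-fold, and MHC class II 2 of 8 lower, the proteases Ctss and Ctsh, against 0 of 8 without the rich members.

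**Figure D4:**
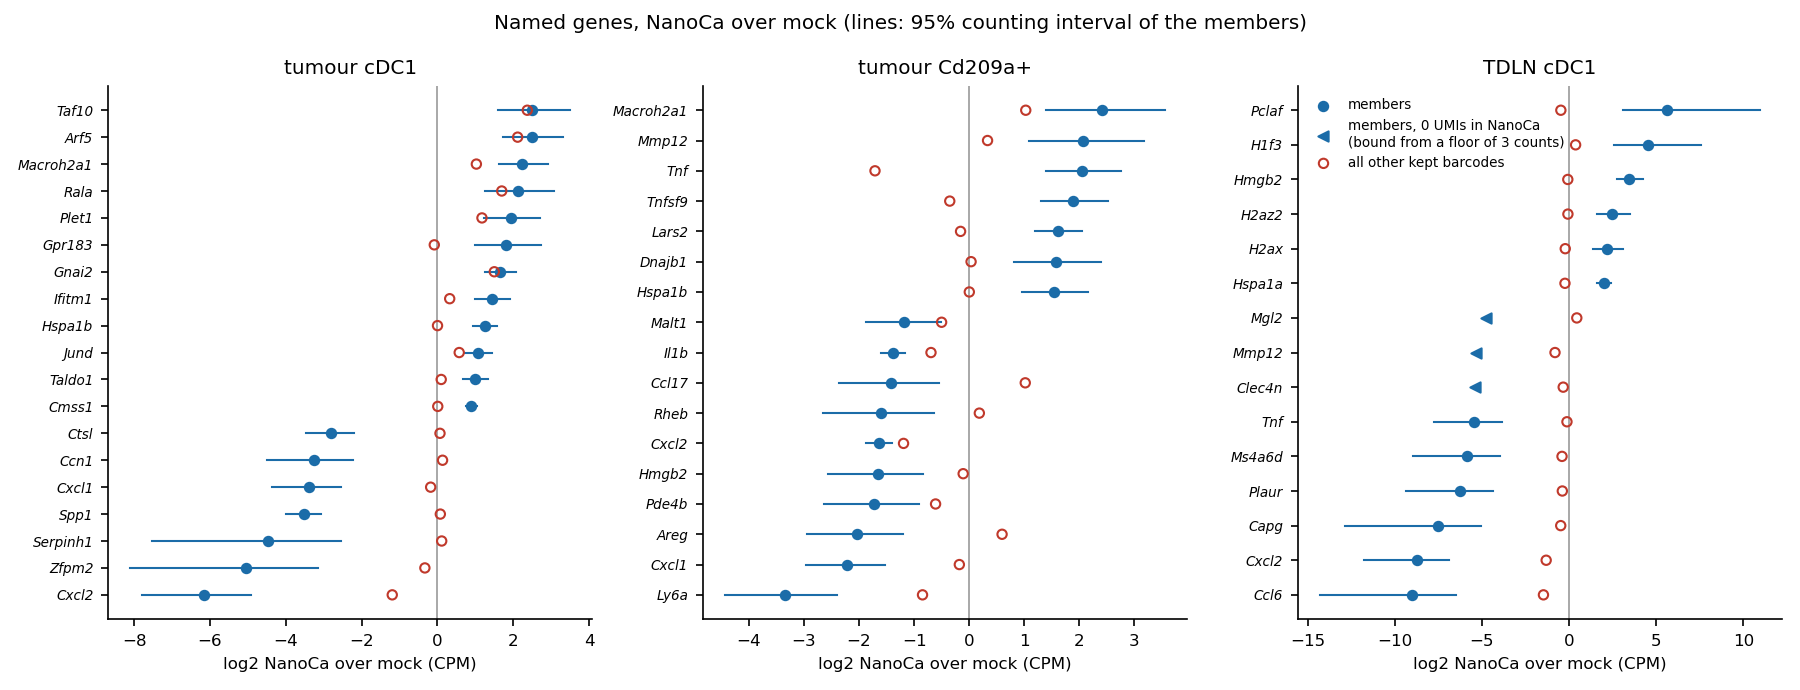
Filled points give the log2 ratio of NanoCa to mock (CPM of sums) for the named genes in tumour cDC1, tumour Cd209a+ members and TDLN cDC1, lines the 95% counting interval, and open circles the same ratio over all other kept barcodes of the libraries; triangles are bounds where NanoCa gave 0 UMIs, and the x axes differ. Taf10, Arf5, Rala and Gnai2 lie close to their open circles, whereas Gpr183 and Hspa1b in tumour and Hmgb2, Pclaf and Hspa1a in TDLN lie apart from theirs.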

How the data were processed

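Single-cell 3' RNA-seq libraries of sorted cells, 1 per group, were deposited by the authors as raw UMI counts per gene and barcode, made with Cell Ranger 7.1.0 per the file headers; the submitters' processing notes name Cell Ranger too. The genome build and its annotation were not given in the sources used here. Each matrix held 31253 genes, and 41777 of 42163 barcodes passed the filters on genes and mitochondrial UMIs; library totals are in the report. Groups came from titles and treatment tags. Members were chosen by the limits the report opens with, and the deposited counts were summed per kind and library and scaled to CPM. Intervals were exact Poisson for levels, exact Clopper-Pearson for shares and exact conditional binomial for ratios, at 95%, for counting error only. A sum at 0 was bounded with a floor of 3 counts. With 1 library per group no test could be made. The genes that chose the members were left out of the gene comparisons. Named genes were drawn from those with 50 or more UMIs over both sums and 50 CPM in 1 of them: per comparison of treatments, the 6 highest and 6 lowest when ranked by whichever interval end lay closer to a ratio of 1, and as many again after leaving out genes past 1.5-fold the same way over all other kept barcodes; for kinds and tissues, the 8 highest and 8 lowest; members of the gene lists could be named besides. Cd8a and Cd207 as sequences were chosen after their values were seen, in place of Mgl2, whose window held no match. The comparison code was tested on simulated data. Shares of cells with a UMI were taken after thinning each cell to 3000 UMIs. Free RNA was estimated from carcinoma genes in tumour and from T- and B-cell genes in TDLN. Doublets were not removed; Scrublet scores (scanpy 1.11.5) served as an alternative, which removed 0.8% per 1000 barcodes. Python packages were numpy 2.4.6, scipy 1.17.1, pandas 2.3.3 and matplotlib 3.10.9. The members and gene lists were chosen with earlier results of these data known. Chosen after seeing the members were the minimum of 15 members a library in place of the planned 20, the leaving out of rich members (Areg was left out of the carcinoma list), the equal weighting of members, and alternatives computed down to 5 members a library; kinds in TDLN and tissues in Cd209a+ members, with 2 and 8 cells, were not compared.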

Additional observations from a re-analysis of the deposited data

Results flagged for a closer look

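In cDC1, 4 of the named or listed genes were at least 2-fold apart between NanoCa and mock in opposite directions in the tissues, and the difference between tissues was not tested. Hmgb2, a chromatin protein of dividing cells, gave a log2 ratio of 3.45 in TDLN and -1.12 in tumour, and Stmn1, a regulator of microtubules, 1.70 and -1.30. Both belong to the cell-cycle list, of whose 2195 UMIs in NanoCa TDLN the highest cells held 581 and 540. Ifitm1, an interferon-induced membrane protein, gave -5.29 in TDLN and 1.44 in tumour. Without the rich members, 6 of which were in mock TDLN, it gave 0.93 and 2.93, the TDLN value on under 50 UMIs, too few to be measured. Taf10, a subunit of the general transcription machinery, gave -1.08 in TDLN and 2.50 in tumour; over all other kept barcodes of the tumour libraries it gave 2.37, and over those of TDLN -0.90.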

How the results depend on the processing

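Membership limits, scaling, the count minimum, subtraction of free RNA, and, added after seeing the data, the leaving out of rich members and equal weighting of members were varied 1 at a time. Of the main counts and shares, 107 alternative values stayed within 1.5 times or the counting interval and 21 did not; of single genes, lists and shares of cells with a UMI, 1710 stayed within the counting interval, 399 moved and 18 turned sign. With a minimum of 20 UMIs in place of 50, which lets in sparser genes, the genes higher and lower with NanoCa were 197 and 252 in tumour cDC1, 76 and 110 in tumour Cd209a+ members and 338 and 341 in TDLN cDC1; between kinds they were 76 and 97 and between tissues 32 and 36. Without the rich members tumour cDC1 gave 20 higher and 26 lower, tumour Cd209a+ members 11 lower, TDLN cDC1 16 lower and the tissues 18 higher. With Rhox5 at 0 tumour cDC1 gave 15 higher and 18 lower and the tissues 2 higher. Removing the highest Scrublet scores left 21 higher in tumour cDC1, at least 2 kind-marker UMIs left 11 higher in tumour Cd209a+ members, and equal weighting gave 8 higher between tissues. The share of calls that were higher went in tumour cDC1 from 46.7% to 35.6% by Scrublet, in tumour Cd209a+ members from 50% to 34.4% by kind markers, in TDLN cDC1 from 45.0% to 81.4% without the rich members, and between tissues from 38.5% to 25.0% and 69.2% with Rhox5 at 0 and without the rich members. Median-of-ratios scaling moved no such share by over 10 points. In tumour cDC1 the log2 ratio of Ctsl turned to 0.91 with Rhox5 at 0 and 0.036 by Scrublet, and that of Nfkb1 to 0.44 and 0.022; between tissues Egr1 turned to -0.39 with Rhox5 at 0. In tumour Cd209a+ members Ccl17 turned to 1.22 with kind markers and 0.95 with at most 2 C1q UMIs, and without the rich members Hmgb2 to 0.033 and Lyz2 to -0.35, both on under 50 UMIs. In TDLN cDC1, without the rich members, Cd14 turned to 1.55, Cxcl9 to 0.52, Fcer1g to 0.22, Ifitm3 to 0.50 and Isg15 to 3.5, and the summed lists of cytokines to 0.61, interferon-gamma-induced genes to 0.40, uptake receptors to 0.19 and regulatory genes of dendritic cells to 0.29. The leaving out of 6 cells made these TDLN values; the cause of the other changes was not tested. No paired analysis was possible because each group had 1 library. No replicate could be left out for the same reason, and with 15 to 27 cells a side single cells set many of the ratios.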
